A study of Mus musculus with 12 samples.

Results

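The transcripts described here encode the enzymes that cut and cross-link the extracellular matrix of the heart, with the inhibitors of those enzymes. They were taken from the count table by symbol: 23 Mmp genes, 19 Adamts genes, 5 Adamtsl genes, 4 Timp genes, and Lox with Loxl1 to Loxl4, which is 56 of 24062 listed genes. With a minimum of 10 counts in 3 of the 6 hearts of a comparison, 44 of the 56 could be tested in adult hearts and 46 in newborn hearts. Mmp1a, Mmp1b and Mmp7 were at 0 in every heart. In all, 9 of the 56 were under the minimum at both ages, those 3 together with Adamts13, Mmp10, Mmp20, Mmp21, Mmp24 and Mmp27.

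Matrix metalloproteinases (MMPs) are zinc enzymes that are made as inactive precursors and that, between them, cut collagens, gelatin, laminins and other matrix proteins. ADAMTS proteases are related zinc enzymes with thrombospondin repeats. Some of them remove the amino-terminal propeptide of procollagens and others cleave proteoglycans such as versican, while the ADAMTS-like proteins have the repeats without the catalytic domain and bind microfibrils. Tissue inhibitors of metalloproteinases (TIMPs) block MMPs and, in the case of TIMP3, several ADAMTS enzymes. Lysyl oxidases start the covalent cross-linking of collagen and elastin, and in the heart the balance of these groups is known to bear on fibrosis and wall stiffness.

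The study asked what loss of LEMD2, a protein of the inner nuclear membrane, does to the mouse heart. Whole-heart polyadenylated RNA was sequenced from 3 mice in each of 4 groups. Adult mice were 2 months old and either WT or KI/KI, homozygous in every cell for the Lemd2 c.T38>G knock-in, a hypomorphic allele. Newborn mice were at postnatal day 1 (P1) and either floxed, with loxP sites around exon 1 of Lemd2 and no Cre, or cKO, with the same floxed alleles and a Myh6-Cre transgene that removes the exon in cardiomyocytes. The floxed mice carry no Cre, so an effect of the transgene and of the deletion cannot be told apart. Age, kind of allele and the cells that carry it differ together between the models.

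Library totals ran from 37063669 to 44789753 counts, so 3 counts, taken as a floor, correspond to 0.067 to 0.0809 CPM (read counts scaled to a common library size), which covers counting error only. Lemd2 itself was at 31.9 to 34.8 CPM in WT, 24.8 to 25.6 in KI/KI, 24.4 to 25.3 in floxed and 6.63 to 13.1 in cKO hearts. Lung epithelium markers, which have no place in heart muscle, summed to between 0.081 and 90.7 CPM and varied within each group. The library labelled cKO replicate 4 had Xist at 616 CPM and Y-linked transcripts near 0, unlike the other 11 libraries. Among the adult hearts, KI/KI replicate 5 stood apart from the other libraries. It was the highest of the 6 in 22 of the 44 tested matrix enzyme genes (50%), against 30.1% of all tested genes. Unless stated, values below are CPM normalized by edgeR within each age (6 hearts), and "adjusted p" is from edgeR's quasi-likelihood test with Benjamini-Hochberg adjustment over all genes tested.

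The control hearts show which of these transcripts the heart contains. To compare genes, CPM normalized over all 12 hearts was divided by exon length in kilobases. On this scale an inhibitor led at each age. In adult WT hearts Timp3 was at 97.1 ± 13 CPM per kb (mean ± SD, n = 3) and Timp2 at 52.6 ± 5.12, followed by Mmp15, a membrane-anchored MMP, at 37.5 ± 1.99 and Mmp2, the gelatinase of connective tissue, at 28.6 ± 3.62. The ranges of mean ± SD of these 4 genes do not touch each other. In P1 floxed hearts the leading level was that of Timp2 at 53.6 ± 4.31 CPM per kb, with Mmp2 at 44.6 ± 2.19, Timp3 at 41.5 ± 1.34 and Mmp15 at 35.6 ± 5.22. Mmp2 and Timp3 lie within their spread of each other there. Of the exon bases of Timp3, 21.3% are shared with Syn3 on the opposite strand, and what this does to its level was not tested.

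Lox and Loxl2 ranked higher in the newborn heart. Lox held rank 25 of 56 in WT hearts at 1.76 ± 0.221 CPM per kb and rank 6 in floxed hearts at 25.7 ± 4.57. Loxl2 stood at 6.86 ± 1.22 in WT hearts against 29.3 ± 6.73 in floxed hearts, and Mmp14, the membrane-anchored enzyme that activates the Mmp2 precursor, at 3.06 ± 0.686 against 23.8 ± 0.911. Timp4, an inhibitor known for its expression in the heart, went the other way, with 8.51 ± 0.313 in WT and 1.27 ± 0.692 in floxed hearts. Of the 47 matrix enzyme genes with at least 10 counts in 3 of the 12 hearts, 25 had all floxed hearts above all WT hearts and 9 had them all below, against 35.9% and 33.8% of all genes. Age and mouse line cannot be told apart in this comparison, and no test was made of it. In RNA from whole hearts, fewer cells of a type and less RNA per cell cannot be told apart either, here and in what follows.

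**Figure D1:**
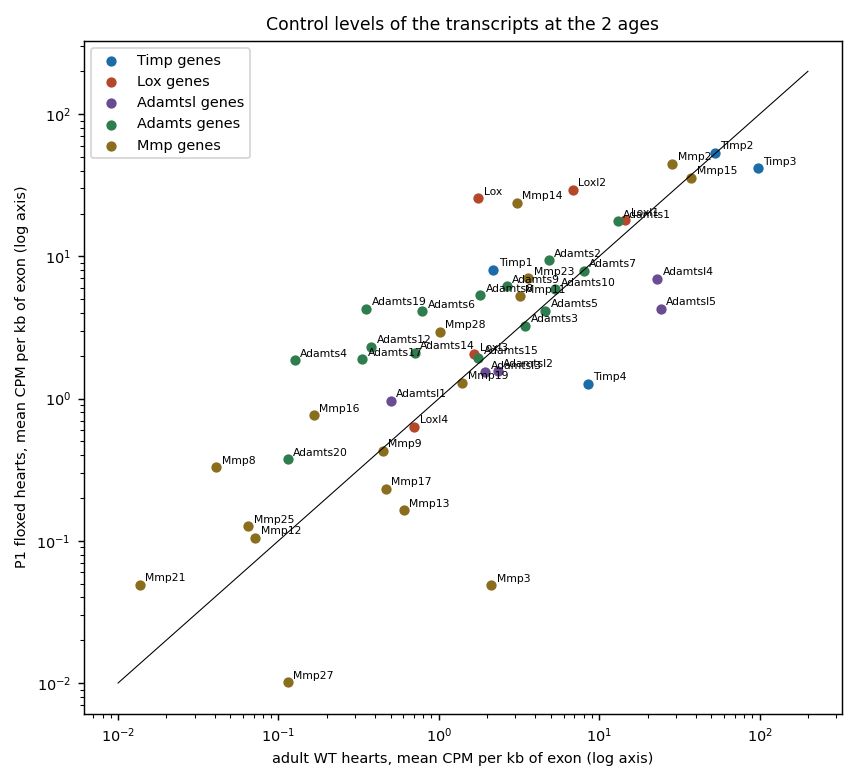
Mean CPM per kb of exon in the 3 adult WT hearts (horizontal, log axis) and in the 3 P1 floxed hearts (vertical, log axis) for the 47 matrix enzyme genes above 0.01 on both axes, coloured by family. The line marks equal levels: 30 genes lie above it, with Lox at 1.76 and 25.7, and 17 below it, with Timp4 at 8.51 and 1.27.

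A cluster of 10 Mmp genes lies on mouse chromosome 9 of GRCm38 between 7272514 and 7699585, a span of 427.1 kb. It holds Mmp13, Mmp12, Mmp1b, Mmp3, Mmp1a, Mmp10, Mmp8, Mmp27, Mmp20 and Mmp7, which include the collagenases and stromelysins induced in inflamed tissue. All 10 were scarce in these hearts. The most abundant in adults was Mmp3, stromelysin-1, at 2.61, 2.89 and 4.73 CPM in WT and 5.63, 5.13 and 3.73 in KI/KI hearts. It was near the floor of 3 counts in the floxed hearts, at 0.102, 0.122 and 0.0711 CPM, and at 0.461, 0.163 and 0 in the cKO hearts. Mmp13, collagenase-3, was between 0.906 and 2.43 CPM in adult hearts and between 0.276 and 0.803 at P1, and none of the cluster genes that could be tested passed at either age. The start of Mmp3 is shown because 6 of the 10 cluster genes share its motif, and none of the other matrix enzyme genes in the RefSeq promoter table does. The table (GRCm38.p6) lists 300 bases per gene, 250 before and 50 after the start, and 37 of the 56 genes matched. The AP-1 site TGAGTCA, read on both strands, is in 6 of the 37 (16.2%), those of Mmp3, Mmp1a, Mmp1b, Mmp7, Mmp10 and Mmp13, and in 5.2% of 27025 promoters. The window of Mmp3, chr9:7445572-7445871 on the plus strand, has the AP-1 site 46 bases and a TATA box match (TATAAA) 7 bases before the listed start, both in capitals:
Mmp3: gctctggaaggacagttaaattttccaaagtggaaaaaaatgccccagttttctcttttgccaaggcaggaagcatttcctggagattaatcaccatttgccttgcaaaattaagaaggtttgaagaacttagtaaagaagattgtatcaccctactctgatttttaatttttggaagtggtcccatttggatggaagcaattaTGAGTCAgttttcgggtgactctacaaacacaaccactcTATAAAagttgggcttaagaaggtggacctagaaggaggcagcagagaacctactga

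In newborn cKO hearts, more of these transcripts rose than fell. Of 46 tested, 18 passed, against 16.4% of all genes. Of these, 14 rose, or 30.4%, where 9.15% of all 15392 tested genes did, and 4 fell (8.70%, against 7.23%). Those that rose were 4 of 5 lysyl oxidases, 1 of 4 inhibitors (Timp1), 2 of 5 ADAMTS-like genes, 5 of 18 tested Adamts genes and 2 of 14 tested Mmp genes. By more than 2-fold, 6 rose (background 2.78%) and 1 fell (1.68%). The median log2 fold change over the 46 genes was 0.31, against -0.00458 over all tested genes. In 18 genes all cKO hearts were above all floxed hearts and in 8 all were below (39.1% and 17.4%, against 20.5% and 19.2% of all genes). At an unadjusted p under 0.05, 18 were higher and 6 lower (18.4% and 15.8% of all genes), and DESeq2 called 18 higher and 4 lower (13.5% and 11.0%).

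The number of calls depended on single hearts. It fell to 2 without floxed replicate 1 or cKO replicate 5 and to 5 without floxed replicate 2, when 2.03%, 3.14% and 4.80% of all genes passed. Without floxed replicate 3, 12 passed, 7 of them higher (10.8% of all genes), and without cKO replicate 6 the count went up to 22 (22.1% of all genes). Adamts20 and Adamts6 passed in each of the 6 fits with a heart left out. Adamts7, Adamts19 and Loxl4 passed in 4, and Adamts14, Adamtsl2, Adamtsl4, Adamtsl5, Loxl1 and Loxl2 in 3. Adamts1 and Adamts10 passed in 2, and Adamts2, Loxl3, Mmp14, Mmp23 and Timp1 in 1. Of genes that did not pass with all hearts, Lox, Adamts5, Adamts8, Mmp2 and Timp3 each passed in 1, as higher. Mmp11 also passed in 1, without floxed replicate 3, as lower (log2 fold change -0.39 with all hearts, adjusted p = 0.116). The median log2 fold change stayed between 0.30 and 0.35. When Y-linked expression entered the fit as a covariate, which takes out the difference of cKO replicate 4, 11 genes passed (10.4% of all genes). Without that heart 14 did (13.6% of all genes).

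Of the 5 lysyl oxidases, 4 rose in cKO hearts. Loxl2, known for cross-linking collagen of basement membranes, was at 152, 157 and 224 CPM in the floxed controls and 331, 469 and 321 in the cKO hearts. Every cKO heart was above every floxed heart, a rise of 2.1-fold (log2 fold change 1.07, standard error 0.20, adjusted p = 0.0191). Loxl4 had 3.1, 3.31 and 2.63 CPM in floxed and 7.16, 6.74 and 5.33 in cKO hearts, again without overlap and at the lowest level of the family (log2 fold change 1.09, standard error 0.18, adjusted p = 0.0139). Loxl1, the enzyme known for its part in elastic fiber upkeep, went from 56.3, 70.9 and 74.2 CPM in floxed hearts to 108, 155 and 109.6 in cKO hearts. Its rise was 1.85-fold (log2 fold change 0.89, standard error 0.17, adjusted p = 0.0197). Loxl3 rose from 10.9, 11.6 and 9.27 to 16.3, 19.5 and 13.6 CPM (log2 fold change 0.64, standard error 0.16, adjusted p = 0.0432), with 11.6% of its exon bases shared with Htra2 on the opposite strand, a gene at 14.8 to 15.2 CPM in floxed and 18.2 to 18.6 in cKO hearts. Lox, the founding member and the main collagen cross-linker of the heart, did not pass. It was at 124, 166 and 123 CPM in floxed controls and 330.0, 314 and 136 in cKO hearts, so that cKO replicate 6 lay inside the floxed range while the other cKO hearts were far above it (log2 fold change 0.92, standard error 0.33, adjusted p = 0.0981). Without cKO replicate 6 its log2 fold change was 1.21, with an adjusted p of 0.00319. DESeq2 called it at 0.015.

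The promoter window of Loxl4, chr19:42612757-42613056 on the minus strand, is printed as the one lysyl oxidase start in the RefSeq table. It holds 3 GC boxes (GGGCGG, in capitals) within 100 bases of the start, a motif that 59.5% of the 37 matched promoters and 35.9% of all promoters contain on either strand:
Loxl4: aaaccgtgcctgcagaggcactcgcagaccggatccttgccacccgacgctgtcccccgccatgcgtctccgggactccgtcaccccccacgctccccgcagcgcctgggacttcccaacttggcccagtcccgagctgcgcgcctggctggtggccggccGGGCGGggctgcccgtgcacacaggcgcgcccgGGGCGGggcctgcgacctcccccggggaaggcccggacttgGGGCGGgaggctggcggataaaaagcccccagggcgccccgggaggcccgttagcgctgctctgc

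Among the inhibitors only Timp1 passed in cKO hearts. Timp1, the inducible member of the family, is X-linked and lies inside an intron of Syn1 on the opposite strand. It had 7.68, 8.25 and 8.13 CPM in the floxed controls and 12.5, 12.3 and 9.96 in the cKO hearts. Although the groups did not overlap, its rise was 1.44-fold (log2 fold change 0.53, standard error 0.13, adjusted p = 0.0388). Its log2 fold change was 0.46 with the Y-linked covariate (adjusted p = 0.0949) and 0.47 without cKO replicate 4 (0.0849). Timp2 was at 225, 256 and 223 CPM in floxed and 278, 316 and 248 in cKO hearts, where cKO replicate 6 lay within the floxed range (log2 fold change 0.26, standard error 0.11, adjusted p = 0.15). Timp3, which is held in the matrix by its charge, was at 368, 387 and 385 CPM in floxed controls and 506, 481 and 358 in cKO hearts, with cKO replicate 6 below every floxed heart (adjusted p = 0.249, and 0.0165 without that heart). It shares 21.3% of its exon bases with Syn3 on the opposite strand, and the strand setting of the counting is not given in the sources used here. Syn3 stood at no more than 5.15 CPM at either age, and the effect of the shared bases on the Timp3 count was not tested. Timp4 varied within groups, from 3.44 to 12.6 CPM in floxed hearts and from 2.17 to 8.96 in cKO hearts, and the groups overlapped (adjusted p = 0.400).

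**Figure D2:**
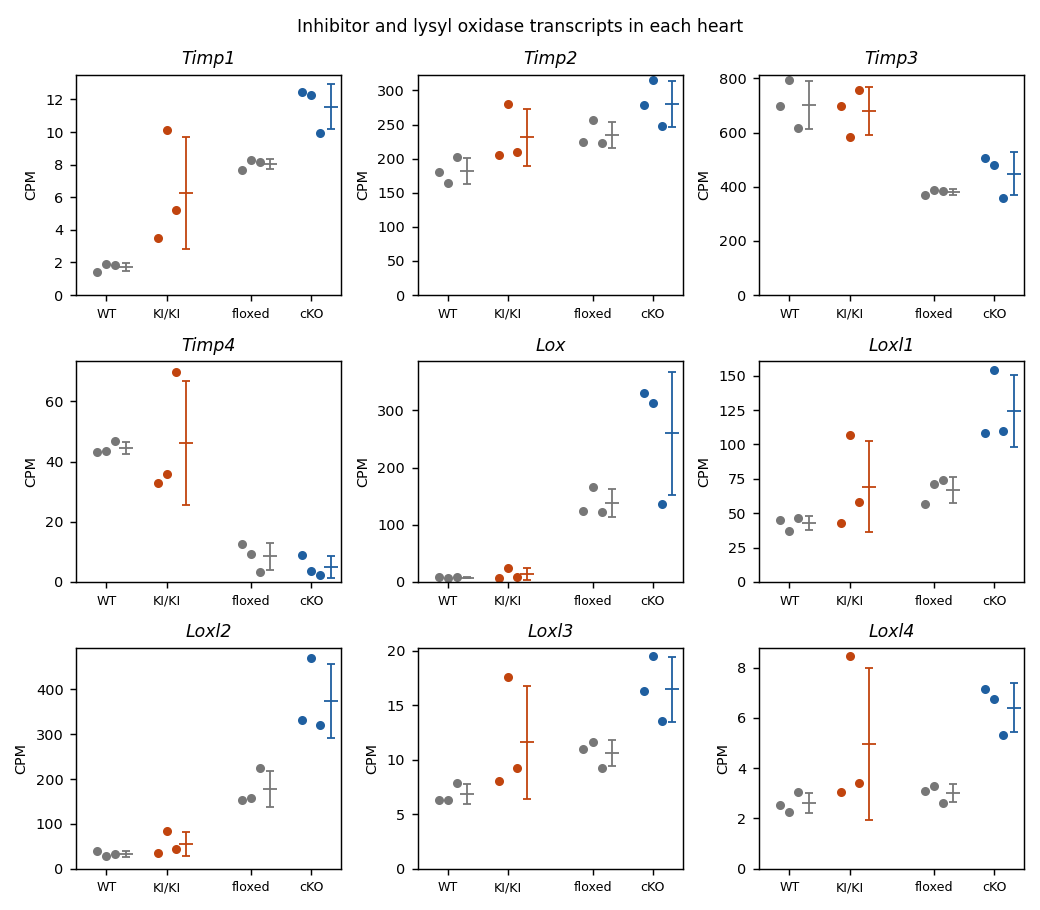
CPM of the 4 Timp and 5 lysyl oxidase transcripts in each heart, normalized within each age, with points for hearts and a bar for the mean and SD of 3 hearts beside them. Loxl1 to Loxl4 and Timp1 lie higher in all cKO hearts than in all floxed hearts, while in the adult panels 1 KI/KI heart is far above the others for each lysyl oxidase (Lox 25 CPM against at most 8.18 in the other adult hearts).

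Adamtsl2 had the largest rise of the 46 genes by estimate. Its product binds fibrillin microfibrils and latent TGF-beta binding proteins, and loss of the human gene causes a dysplasia with thickened heart valves. It was at 12.3, 15 and 15.1 CPM in floxed controls and 79.4, 99.6 and 30.3 in cKO hearts, all of them above the floxed range but cKO replicate 6 much closer to it. The mean went from 14.1 ± 1.57 to 69.8 ± 35.6 CPM (SD, n = 3), a rise of 4.94-fold (log2 fold change 2.30, standard error 0.41, adjusted p = 0.0156). Its promoter window, chr2:27079129-27079428 on the plus strand, is shown for that rise, with a TATA box (TATAAA) 30 bases and a GC box 83 bases before the start in capitals. A TATA box on either strand is in 29.7% of the matched promoters and 14.2% of all promoters:
Adamtsl2: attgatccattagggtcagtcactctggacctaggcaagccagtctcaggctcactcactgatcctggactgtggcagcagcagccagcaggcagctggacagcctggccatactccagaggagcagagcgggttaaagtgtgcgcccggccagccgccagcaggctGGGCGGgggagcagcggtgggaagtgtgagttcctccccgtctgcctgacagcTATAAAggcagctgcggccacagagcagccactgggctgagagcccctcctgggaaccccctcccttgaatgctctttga

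The other ADAMTS-like genes went different ways. Adamtsl5 rose from 19.7, 18.2 and 30.1 to 38.4, 60.9 and 71.1 CPM (log2 fold change 1.32, standard error 0.28, adjusted p = 0.0243). Adamtsl4, whose product takes part in the fibrillin fibers that hold the lens, fell from 40.0, 34.9 and 23.3 to 18.4, 18.9 and 15.6 CPM (log2 fold change -0.89, standard error 0.20, adjusted p = 0.0299). Neither overlapped between groups. Adamtsl1 and Adamtsl3 had log2 fold changes of -0.15 and -0.07 and overlapped.

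Adamts20, a versican-cleaving protease known from the belted coat color mutant, gave the smallest adjusted p of the 46 genes. It was at 3.71, 4.07 and 3.58 CPM in the floxed controls and 12.3, 12.2 and 12.1 in the cKO hearts. Each group was tight, and the rise was 3.23-fold (log2 fold change 1.69, standard error 0.12, adjusted p = 0.00495). Adamts1, a proteoglycan-cleaving enzyme with anti-angiogenic activity, had 97, 124 and 94.3 CPM in floxed and 297, 204 and 143 in cKO hearts. Its groups were apart but the cKO hearts were spread (log2 fold change 1.03, standard error 0.26, adjusted p = 0.0403). The procollagen N-proteinases Adamts2 and Adamts14 rose together while Adamts3, the remaining one, did not pass. Adamts2 went from 91.6, 107 and 97.2 to 171, 189 and 116 CPM (log2 fold change 0.69, standard error 0.18, adjusted p = 0.0429). Adamts14 went from 11.1, 12.4 and 13.2 to 19.2, 21.7 and 17.8 CPM (log2 fold change 0.68, standard error 0.12, adjusted p = 0.016), and Adamts3 was at 16.5, 21 and 22 in floxed and 16.3, 16 and 18.1 in cKO hearts (adjusted p = 0.248). Adamts10, which like Adamtsl2 is linked to fibrillin microfibrils, rose from 54.6, 58.2 and 50.5 to 88.7, 84 and 68.5 CPM (log2 fold change 0.56, standard error 0.11, adjusted p = 0.0225).

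Of the 4 genes that fell, 3 were Adamts proteases. Adamts6, which is needed for heart morphogenesis in mice and acts on microfibrils, fell most. It was at 42.1, 31.2 and 34.6 CPM in floxed controls and 12.7, 13.4 and 8.86 in cKO hearts (log2 fold change -1.62, standard error 0.19, adjusted p = 0.0067). The highest cKO heart was far below the lowest floxed heart. Adamts7, a protease of cartilage oligomeric matrix protein with a known association with coronary disease, had 62.3, 59 and 47.1 CPM in floxed and 27.3, 27.3 and 33 in cKO hearts (log2 fold change -0.94, standard error 0.14, adjusted p = 0.00969). Adamts19, linked to heart valve disease, fell from 67.6, 63.8 and 70.4 to 48, 46.4 and 37.9 CPM (log2 fold change -0.61, standard error 0.11, adjusted p = 0.015). Adamts8 was at 19.8, 32 and 30.9 CPM in floxed and 67.8, 123 and 33.5 in cKO hearts (adjusted p = 0.0697) and Adamts5, the main aggrecan-cleaving enzyme, at 48.6, 58.5 and 42.9 in floxed and 120.3, 101 and 55.2 in cKO hearts (adjusted p = 0.0714). For both, cKO replicate 6 was the cKO heart nearest to the controls, and both passed without it, at 0.0141 and 0.00389. Adamts9, a versican-cleaving enzyme, was at 106, 108 and 98 CPM in floxed and 105, 91 and 93.5 in cKO hearts (adjusted p = 0.399). The other 6 tested Adamts genes had log2 fold changes from -0.86 to 0.39 and adjusted p-values from 0.152 up.

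Of the 14 tested Mmp genes 2 rose. Mmp14 was at 161, 165 and 152 CPM in floxed and 181, 221 and 206 in cKO hearts, a rise of 1.27-fold without overlap (log2 fold change 0.35, standard error 0.09, adjusted p = 0.046). Mmp23, a short membrane-anchored member, rose from 17.7, 17.9 and 19.6 to 32.8, 36.9 and 21.5 CPM (log2 fold change 0.73, standard error 0.20, adjusted p = 0.048). Mmp2 was at 175, 174 and 159 in floxed and 238, 265 and 188 CPM in cKO hearts, and the groups did not overlap. It passed with DESeq2 (adjusted p = 0.0154) but with edgeR (0.0601) only without cKO replicate 6 (0.008). Mmp15 overlapped between the groups, at 202, 194 and 251 CPM in floxed and 122, 171 and 226 in cKO hearts (adjusted p = 0.348). Mmp9, the gelatinase of leukocytes, was scarce, at 1.82, 1.84 and 1.45 CPM in floxed and 1.2, 0.932 and 0.857 in cKO hearts (adjusted p = 0.0808). The other 9 tested Mmp genes had log2 fold changes from -0.39 to 1.48 and adjusted p-values from 0.116 up.

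**Figure D3:**
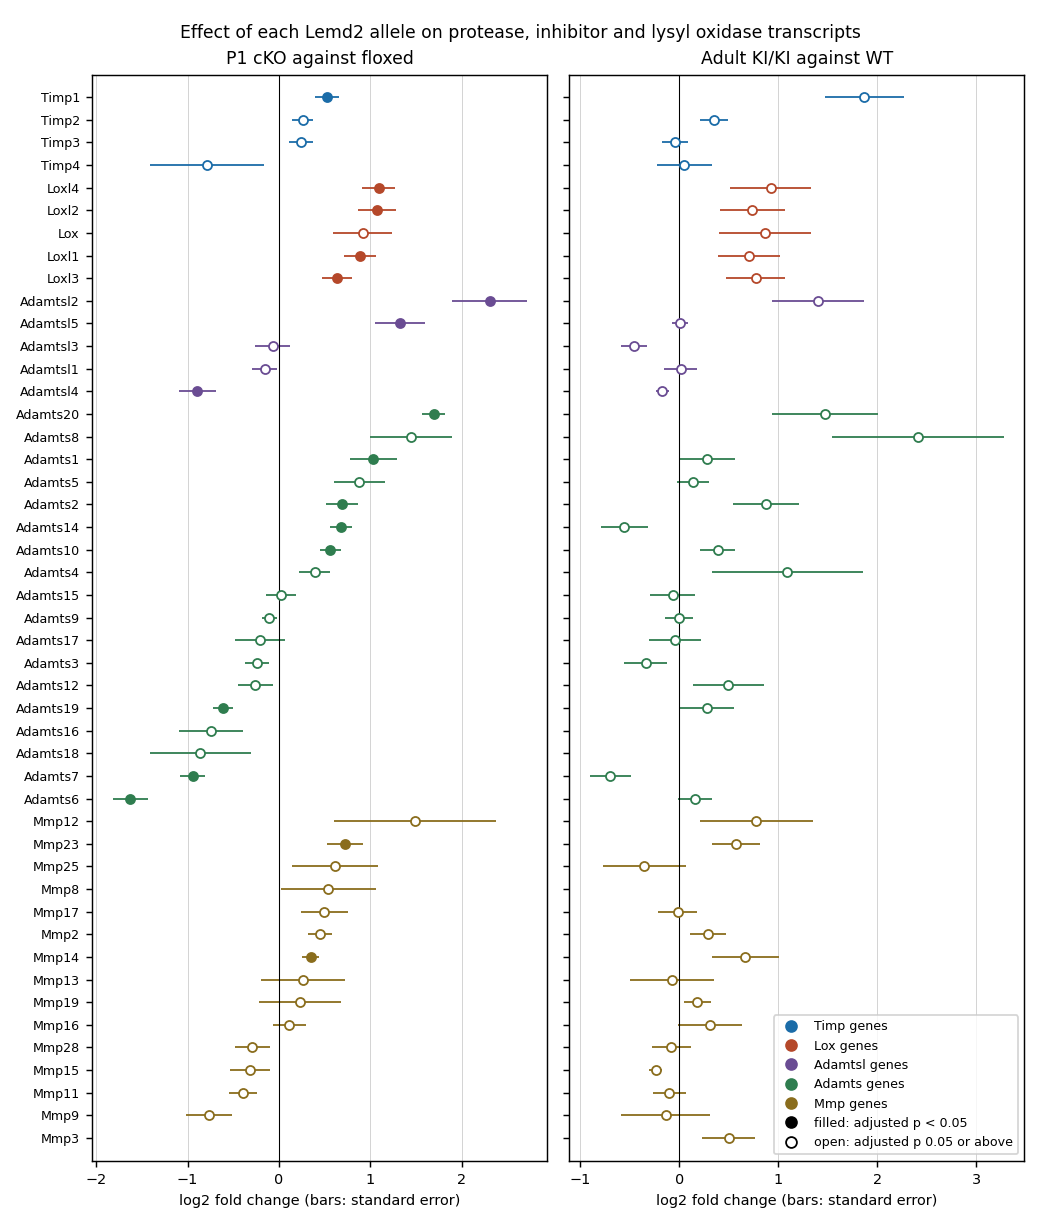
Log2 fold change (bars, standard error) of each tested gene in cKO against floxed hearts at P1 (left) and in KI/KI against WT adult hearts (right), 3 hearts per group. Filled points have an adjusted p under 0.05: 18 of 46 at P1, led by Adamtsl2 at 2.30 and Adamts6 at -1.62, and 0 of 44 in adults.

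Other genes of the same pathways were counted from fixed lists at P1. Procollagen processing and collagen modification had 9 of 14 tested genes higher and elastic fiber assembly 6 of 10, with 0 lower in both lists, where 9.15% of all genes were higher and 7.23% lower. Among the first, P4ha1, a prolyl hydroxylase subunit, rose from 40.4, 45.7 and 50.9 to 96.4, 98.3 and 87 CPM (log2 fold change 1.04, adjusted p = 0.0056), and Pcolce, the enhancer of procollagen C-proteinase, by 0.87 on the log2 scale (adjusted p = 0.0067). Emilin1, an elastic fiber glycoprotein, rose by 0.95 (adjusted p = 0.00689). In the list of other protease inhibitors, Serpinh1, which despite its family is a collagen chaperone, rose by 0.74 (adjusted p = 0.0107). Of 10 ADAM proteases 1 rose, Adam9, by 1.58 (adjusted p = 0.0067). Cathepsins had 2 of 9 higher (Ctsz and Ctsb), convertases and MMP activators 2 of 7 (Cd44 and Lrp1) and proteoglycan substrates 1 of 7 (Bgn), and the plasminogen system 0 of 4. None of these lists had a gene that passed as lower with edgeR. Acan, a proteoglycan substrate, was lower in all cKO hearts (log2 fold change -0.79, adjusted p = 0.0609, and 0.00745 by DESeq2). It was at 27.5, 27.8 and 17.5 CPM in floxed and 17, 14.2 and 10.8 in cKO hearts.

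Summed levels of several cell type marker lists did not overlap between the P1 groups. The summed level of 8 fibroblast markers was 4566 to 4969 CPM in floxed and 6524 to 7021 in cKO hearts, but the list did not move as one. Postn, Col1a1 and Tcf21 rose, while Pdgfra, Lum and Dcn had log2 fold changes of -0.16, -0.16 and -0.14 and Dpt 0.08, and none of these 4 passed. Macrophage markers summed to 117 to 143 against 148 to 291 CPM (4 of 7 rose) and markers of dividing cells to 302 to 419 against 488 to 1146. Endothelial markers summed to 1236 to 1323 CPM in floxed and 1434 to 1722 in cKO hearts, with 1 of 6 past the threshold (Pecam1, adjusted p = 0.0416). Markers of smooth muscle and pericytes summed to 1582 to 1988 against 2003 to 3387 CPM. Most of that sum was Acta2, which did not pass (adjusted p = 0.176). In that list Tagln, Pdgfrb and Cspg4 rose, while Myh11, the smooth muscle myosin, was lower in all cKO hearts (log2 fold change -0.65, adjusted p = 0.0506, and 0.00658 by DESeq2). Skeletal muscle markers, nearly all Ckm, which the heart also expresses, summed to 993 to 1137 against 627 to 694 CPM. Ckm fell (adjusted p = 0.00928), but that list did not move as one. Myh1 rose at a low level, from 0.128 to 0.356 CPM in floxed to 0.67 to 1.35 in cKO hearts (adjusted p = 0.033). Mylpf was higher in all cKO hearts (adjusted p = 0.0764, and 0.0298 by DESeq2), and Actn3 had a log2 fold change of -0.84 (adjusted p = 0.241). Cardiomyocyte markers summed to 39728 to 45206 CPM in floxed and 30261 to 33575 in cKO hearts, with 3 of 7 lower (Tnni3, Ryr2 and Pln). The largest part of that sum was Myh6, lower in all cKO hearts but not past the threshold (adjusted p = 0.0566, and 0.00407 by DESeq2). Actn2 went the other way without passing (log2 fold change 0.32, adjusted p = 0.157). Neutrophil markers were at 11.9 to 28.7 and 11.7 to 23.0 CPM and overlapped. The part of these shifts in the rises and falls above was not tested.

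**Figure D4:**
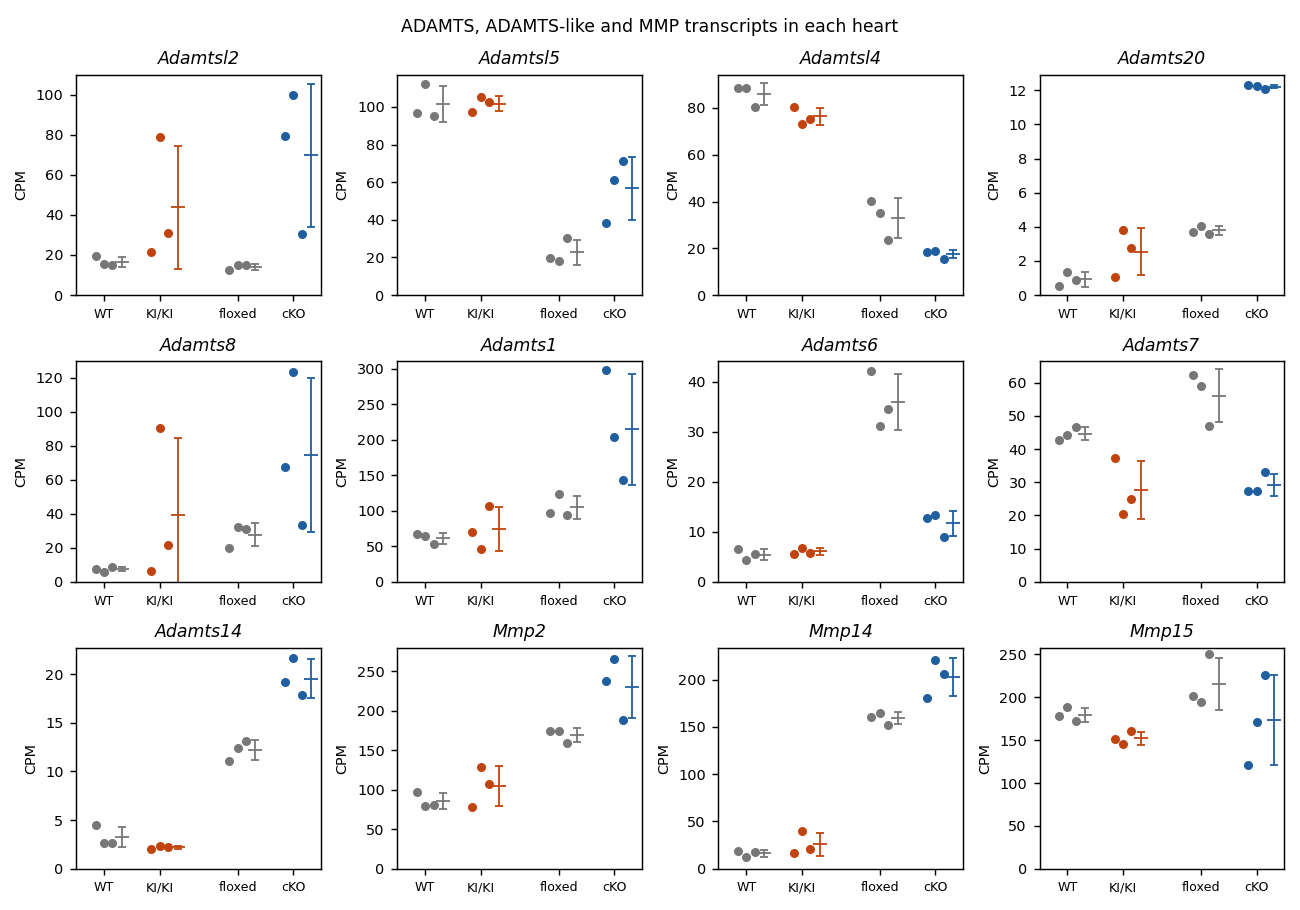
CPM of 12 ADAMTS, ADAMTS-like and MMP transcripts in each heart, normalized within each age, with points for hearts and a bar for the mean and SD of 3 hearts. Adamts20 has the smallest adjusted p at P1 (3.71, 4.07 and 3.58 against 12.3, 12.2 and 12.1 CPM), Adamts6 is lower in cKO than in floxed hearts but overlaps between the adult groups, and the lower end of the Adamts8 bar in KI/KI hearts runs past 0.

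In adult hearts with the knock-in, no gene of the genome passed with edgeR (0 of 14670), and none of the 44 matrix enzyme genes. The smallest adjusted p among them was 0.200, for Timp1. At an unadjusted p under 0.05 there were 8 higher (18.2%, against 8.72% of all genes) and 4 lower (9.09%, against 7.18%). By DESeq2, 2 passed: Timp1 was higher, as were 2.09% of all genes, and Adamts7 lower, as were 1.45%. All KI/KI hearts were above all WT hearts in 5 genes (Timp1, Timp2, Loxl3, Adamts2 and Adamtsl2) and below in 5 (Adamts7, Adamts14, Adamtsl3, Adamtsl4 and Mmp15), 11.4% each way, against 11.4% and 10.9% of all genes. These shares are near the background. Without WT replicate 1, WT replicate 3 or KI/KI replicate 4 the count above was 8, 11 or 16 (18.2%, 25% and 36.4%), against 15.3%, 21.5% and 21.6% of all genes. The median log2 fold change was 0.23 over the 44 genes and 0.00 over all genes, and without KI/KI replicate 5 the first was 0.08.

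Timp1 was at 1.42, 1.89 and 1.86 CPM in WT and 3.49, 10.1 and 5.23 in KI/KI hearts. The lowest KI/KI heart was above the highest WT heart, and the mean was 3.64-fold higher (log2 fold change 1.87, standard error 0.40, adjusted p = 0.200 by edgeR, 4.42e-04 by DESeq2). Without KI/KI replicate 5 the log2 fold change was 1.34 (adjusted p = 0.264). Macrophage markers summed to 221 to 348 CPM in WT and 361 to 434 in KI/KI hearts, with 5 of 7 higher in all KI/KI hearts and none past edgeR's threshold, and the part of this shift in the Timp1 values was not tested. The promoter window of Timp1, chrX:20869916-20870215 on the plus strand, is shown because Timp1, with Adamts7, was called in the same direction by DESeq2 in adults and by both tests at P1. In capitals are the AP-1 variant TGAGTAA, 27 bases after the start, which 2.7% of the matched and 2.7% of all promoters hold, and a GC box read on the opposite strand (CCGCCC). Matches to CCAAT (24.3% of the matched and 37.9% of all promoters) and to the TEAD site GGAATG (5.4% and 14.6%) are left in lower case. An E-box (CACGTG), the last motif searched, is in 2.7% and 7.2%. A match describes these letters and is no evidence of binding:
Timp1: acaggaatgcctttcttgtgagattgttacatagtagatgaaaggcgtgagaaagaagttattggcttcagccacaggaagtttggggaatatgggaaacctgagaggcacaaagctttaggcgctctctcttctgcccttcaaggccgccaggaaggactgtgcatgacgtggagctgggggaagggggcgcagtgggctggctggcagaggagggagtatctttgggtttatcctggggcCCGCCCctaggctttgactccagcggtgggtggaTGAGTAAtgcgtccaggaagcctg

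The other inhibitors showed little in adults. Timp2 was at 181, 164 and 202 CPM in WT and 206, 279.7 and 209 in KI/KI hearts, apart by a narrow margin (log2 fold change 0.35, standard error 0.14, adjusted p = 0.309). Timp3, at 697, 793 and 616 CPM in WT and 698, 584 and 759 in KI/KI hearts, overlapped between the groups. Timp4 had 43.2, 43.5 and 47 CPM in WT hearts and 32.8, 35.7 and 69.9 in KI/KI hearts, with KI/KI replicate 6 above and the other KI/KI hearts below all WT hearts (adjusted p = 0.943).

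All 5 lysyl oxidases had positive log2 fold changes in KI/KI hearts, from 0.70 to 0.92, and for each of them KI/KI replicate 5 was the highest heart. Lox was at 8.18, 6.4 and 7.82 CPM in WT and 7.67, 25 and 8.06 in KI/KI hearts. Replicate 5 was far above the 5 other hearts, and the other KI/KI hearts were within the WT range (log2 fold change 0.87, standard error 0.46, adjusted p = 0.392). Loxl2 read 38.9, 27.4 and 32.5 in WT and 34.3, 85 and 44.9 CPM in KI/KI hearts. Loxl1 read 44.7, 36.8 and 46.2 CPM in WT and 43, 107 and 58 in KI/KI hearts, and Loxl4 2.55, 2.27 and 3.06 in WT and 3.04, 8.44 and 3.4 in KI/KI hearts. For these 3 genes the lowest KI/KI heart was within the WT range. Loxl3 alone, at 6.26, 6.32 and 7.87 CPM in WT and 8.04, 17.5 and 9.23 in KI/KI hearts, had groups that did not overlap (adjusted p = 0.297). Without replicate 5 the 5 values ran from 0.08 for Lox to 0.34 for Loxl3, all still positive and none past the threshold. In the same heart the summed fibroblast markers were 2976 CPM, against 1490 to 1733 in WT hearts and 1750.0 and 2025 in the other KI/KI hearts, and the summed cardiomyocyte markers 44973 against 55518 to 68862 in the other 5. In that heart Col1a1, Col1a2, Postn and Tcf21 were at 545, 674, 396 and 20.0 CPM, against at most 278, 408, 149 and 11.3 elsewhere. Pdgfra, Dcn, Dpt and Lum were nearer, at 103, 924, 146 and 169 against at most 95.7, 804, 127 and 152. The part of these marker levels in the lysyl oxidase values was not tested.

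The same heart was the highest for the proteases and ADAMTS-like genes with the largest adult estimates. Adamts8 was at 7.67, 6.07 and 8.6 CPM in WT and 6.56, 90.6 and 21.5 in KI/KI hearts, with KI/KI replicate 4 inside the WT range (log2 fold change 2.41, standard error 0.87, adjusted p = 0.277), and its log2 fold change was 0.91 without replicate 5. Adamtsl2 had 19.3, 15.3 and 15 CPM in WT and 21.3, 78.8 and 31 in KI/KI hearts. Its groups did not overlap at either age, with an adult log2 fold change of 1.40 (adjusted p = 0.262) that was 0.66 without replicate 5. Adamts20 was at 0.51, 1.38 and 0.858 CPM in WT and 1.06, 3.81 and 2.73 in KI/KI hearts (adjusted p = 0.279), and Adamts2 at 43.6, 35 and 41.8 in WT and 45.2, 116 and 59.6 in KI/KI hearts (adjusted p = 0.288).

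Among genes lower in all KI/KI hearts, replicate 5 was the lowest heart for Adamts7, Mmp15, Adamtsl3 and Adamtsl4. Without replicate 5 their log2 fold changes were -0.52, -0.20, -0.34 and -0.14, smaller in size than with all hearts. Adamts7 was at 42.9, 44.2 and 46.8 CPM in WT and 37.4, 20.5 and 24.9 in KI/KI hearts, below every WT heart (log2 fold change -0.69, standard error 0.21, adjusted p = 0.241). DESeq2 called it (0.0362), and edgeR did so only without KI/KI replicate 4, at 0.0353. Mmp15 was at 178, 189 and 173 CPM in WT and 151, 146 and 160.4 in KI/KI hearts. Adamtsl3 was at 14.6, 13.4 and 12.1 CPM in WT and 10.3, 8.12 and 10.8 in KI/KI hearts, and Adamtsl4 at 88.7, 88.5 and 80.6 and then 80.4, 73.3 and 75.4. Each of these 3 was lower in all KI/KI than in all WT hearts, with differences of -0.24, -0.46 and -0.17 on the log2 scale, with adjusted p-values of 0.239, 0.241 and 0.286. Adamtsl5, at 96.8, 112 and 95 in WT and 97.5, 105 and 103 CPM in KI/KI hearts, and Adamts9, at 43.4, 33 and 30.1 in WT and 33, 35.5 and 37.7 in KI/KI hearts, had log2 fold changes within 0.01 of 0. Mmp2 (97.5, 79 and 80.4 CPM in WT, 77.7, 129 and 108 in KI/KI) and Mmp14 (18.8, 12 and 17.8, then 16.8, 39.6 and 20.7) overlapped between groups, and Adamts1, Adamts5, Adamts6, Adamts10 and Adamts19 had adjusted p-values from 0.344 to 0.687. A further 15 tested genes had log2 fold changes from -0.35 to 1.09 and adjusted p-values from 0.313 up. In the fixed lists of related genes the count of calls by edgeR in adults was 0 in each. At an unadjusted p under 0.05, procollagen processing had 4 of 14 higher and 1 lower, elastic fiber assembly 3 of 10 higher and cathepsins 4 of 9 higher (8.72% of all genes were higher and 7.18% lower). DESeq2 called 3 higher and 1 lower in the first list, 2 in the second and 2 in the third (2.09% of all genes higher, 1.45% lower). The other 5 lists had 0 to 5 at that p and 0 to 2 by DESeq2.

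**Figure D5:**
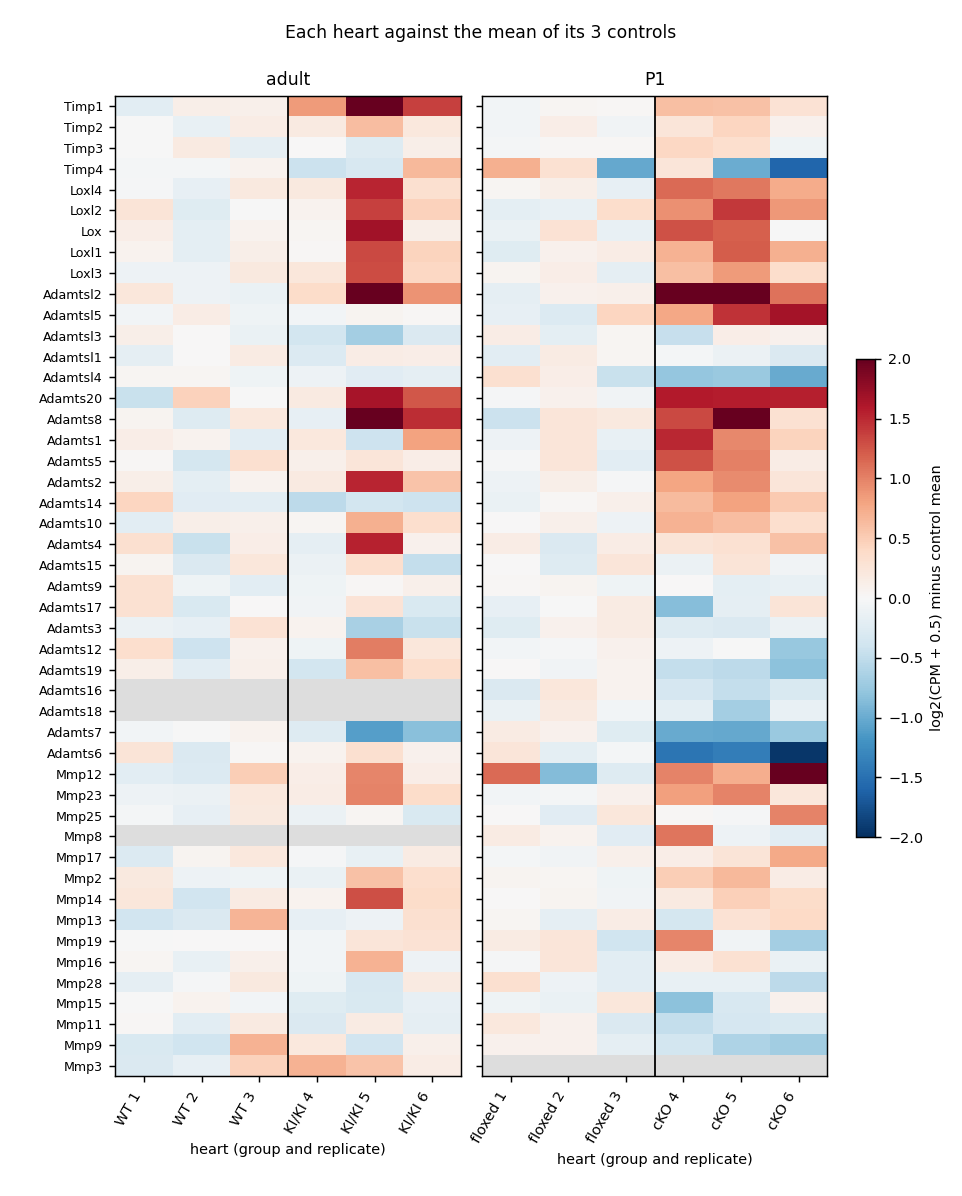
Each heart against the mean of the 3 controls of its age, as log2(CPM + 0.5) minus that mean, for every tested gene, with colours ending at 2 in each direction and grey where the gene was under the minimum of counts. KI/KI replicate 5 is the highest adult heart in 22 of 44 genes, and at P1 all cKO hearts are above all floxed hearts in 18 of 46 genes and below in 8.

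Whether the effect of a genotype differed between the models was tested by the interaction of genotype and model over all 12 hearts. It passed in 391 of 15842 genes (2.47%) and in 2 of the 47 matrix enzyme genes tested. Adamts6 was lower in cKO hearts (log2 fold change -1.62) and at 6.54, 4.32 and 5.52 CPM in WT and 5.66, 6.86 and 5.76 in KI/KI hearts (0.16), a difference between the effects of -1.78 (standard error 0.27, adjusted p = 0.0122). Adamts14 was higher in cKO hearts (0.68) and at 4.47, 2.65 and 2.67 CPM in WT and 2.06, 2.34 and 2.25 in KI/KI hearts (-0.55), a difference of 1.24 (standard error 0.27, adjusted p = 0.0417). The adult groups of Adamts6 overlapped, while those of Adamts14 did not. Without WT replicate 1 the adult log2 fold change of Adamts14 was -0.26 and the difference between the models 0.94 (adjusted p = 0.0571). With each heart left out in turn, the difference of Adamts6 passed in 12 of 12 fits and that of Adamts14 in 3. For Adamtsl5 the difference was 1.33 (adjusted p = 0.0551). Lysyl oxidases differed by -0.13 to 0.35 between the models, with adjusted p-values of 0.692 and above, which does not show that the effects were alike.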

How the data were processed

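Per the labels and the study's methods, polyadenylated RNA of whole hearts was made into libraries with a KAPA mRNA HyperPrep kit and read in single-end runs on a NextSeq500. The authors deposited raw read counts per gene, and the submitters' processing notes name Trim Galore, Bowtie2 2.3.4.3, STAR 2.7.2b, SAMtools 1.9 and HTSeq. The strand setting of the counting is not given in the sources used here. Counting error is small at these depths, and the spread between mice sets the precision.

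Groups came from the labels, with 3 mice each. Within each age, genes with 10 or more counts in at least 3 of 6 libraries were tested with edgeR 4.0.16 in R 4.3.3 (TMM normalization, quasi-likelihood test with robust dispersion, Benjamini-Hochberg adjustment over all genes tested). The interaction of genotype and model was fitted over all 12 libraries. The code was run on simulated counts with planted changes. These had independent genes and no heart that deviated in many genes, unlike KI/KI replicate 5 here. Alternatives were DESeq2 1.42.0, limma-voom (limma 3.58.1), other scaling factors, no filter, a fold limit of 2, a covariate for Y-linked transcripts, and each library left out.

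The members and lists were chosen with earlier results of these data known. Values are given for all Timp and lysyl oxidase genes, genes passing with either tool, genes with separate adult groups and an unadjusted p under 0.05, and the 3 most abundant Mmp, Adamts and Adamtsl genes. Mmp3, Mmp9, Mmp13, Adamts3, Adamtsl1 and, among related genes, Acan were added after their values were seen. Related genes were named by smallest adjusted p, up to 3 per list, and 1 gene of these lists is not reported here. Exon lengths came from GENCODE annotation of GRCm38.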

Additional observations from a re-analysis of the deposited data

Results flagged for a closer look

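By the interaction test over 12 hearts, 2 of the 47 matrix enzyme genes tested passed, where 2.47% of all genes did. For Adamts6, the log2 effect in cKO hearts minus that in KI/KI hearts was -1.78. For Adamts14 it was 1.24. With each heart left out in turn, Adamts6 passed in 12 of 12 fits and Adamts14 in 3. Age, kind of allele and the cells that carry it differ together between the models, so these cannot be told apart.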

How the results depend on the processing

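Counts of genes past the threshold moved most. In adults DESeq2 called 2, 1 higher and 1 lower (2.09% and 1.45% of all genes). With each heart left out edgeR called 0 to 1 (0% to 0.351% of all genes). In those fits 6 to 16 genes had all KI/KI hearts above WT (14.1% to 21.6% of all genes). At P1 the 18 calls became 11 with the Y-linked covariate (10.4% of all genes) and 2 to 22 with a heart left out (2.03% to 22.1%). With a fold above 2 there were 6 higher and 1 lower (2.78% and 1.68%). Upper-quartile scaling left 9 higher. The difference between the models gave 6 calls with DESeq2 and 1 to 4 with a heart left out. No share of all genes was computed for the upper-quartile count or for the difference between the models under other settings. How far those counts moved with the background cannot be told. With the replicate number as a block the difference between the models gave 0, with Adamts6 at -1.80 (adjusted p = 0.0688) and Adamts14 at 1.20 (0.143). The numbers do not pair the hearts: deviations of same-numbered hearts correlated at r of -0.43 to 0.182 across 15842 genes. No paired analysis was possible because control and mutant hearts of one age share no replicate number. Among the genes named by rule, signs turned for 7 estimates, none of them past the threshold. In adults, Adamtsl5 was -0.00257 with DESeq2, -0.000697 with RLE factors, -0.00158 in a fit of all 12 libraries and -0.0392 to 0.0863 with a heart left out (-0.0263, -0.0172 and -0.00274 among them). Adamts9 was 0.00454 with upper-quartile scaling, 0.0169 with limma-voom and -0.109 to 0.167 with a heart left out, including 0.0451. Timp4 was -0.0382 with limma-voom. With a heart left out, Timp4 ran from -0.382 to 0.244, Timp3 from -0.132 to 0.0555 (0.0518 in between), Adamts5 from -0.021 to 0.317 and Adamts1 from -0.0756 to 0.536. At P1, Adamtsl3 was 0.129 with the Y-linked covariate and -0.174 to 0.0998 with a heart left out, including 0.00831. The causes were not tested. The covariate was not run in adults, whose libraries were alike in Y-linked transcripts.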
